A study of Mus musculus with 7 samples.

Results

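Peaks called for CTCFL in P19 cells without a peak of the other lists made up 920 of 65700 regions. The regions were obtained by merging the peaks of 4 chromatin immunoprecipitation lists wherever they shared at least 1 bp. A region was kept when it held a peak of the P19 CTCFL list and no peak of P19 CTCF, 3T3 CTCFL or 3T3 CTCF. Each of the 920 regions was a single peak, so the regions were 15.7% (95% interval 14.8 to 16.6) of the 5866 P19 CTCFL peaks. The regions were chosen by the measured presence or absence of peaks in the lists. Their scores and widths come from the same list and are given below as a description without a test. The share depends on the lists set against it. It was 49.1% when all lists were shortened to their 5866 strongest peaks and 30.6% without the P19 CTCF list, and it was 6.05% among P19 CTCFL peaks scoring at least 100.

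CTCF is a DNA-binding protein with a tandem array of zinc fingers that marks insulators and the anchors of chromatin loops, and it is made in nearly all cells. CTCFL, also called BORIS, is its paralogue with closely related zinc fingers but different ends. It is normally made in male germ cells and appears in some cancers. Because their zinc fingers are alike, CTCF and CTCFL can recognise similar DNA, and CTCFL has been found both at CTCF sites and away from them.

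The P19 library made with the CTCFL antibody S6 came from P19 cells, a mouse embryonal carcinoma line, and was compared with a library of the same line made with the CTCF antibody N2.2. The 3T3 libraries came from NIH3T3 mouse fibroblasts and used S6 and N2.2 likewise. By the labels, all 4 carried the constructs pBI-EGFP-FLAG-mCtcfl and pTA-N as stable integrates, were kept in 2 µg/ml doxycycline and were induced by 48 h without it. The P19 titles say control although those labels list the construct, so the state of CTCFL induction in P19 is not settled by them, and whether 1 clone or a pool of cells was used is not given in the sources used here. The series has 7 samples. The other 3, namely the input of P19 cells and both antibodies in 3T3 cells with no construct, were not analysed here, and whether the lone regions hold antibody background was not tested.

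Each group had 1 library, so no p-value is given and no difference has a replicate check. Intervals are exact 95% binomial ones for shares and medians and exact Poisson ones for densities, and they cover counting error only. Read depth is unknown. The P19 CTCFL list was the shortest, against 32277 peaks of P19 CTCF, 16764 of 3T3 CTCFL and 45653 of 3T3 CTCF. Positions are in the build mm9, and no sequence is shown because a genome of that build was not used here.

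The 920 regions were weak for their list. The score is the value the authors' peak caller gave each peak, and a higher score is a smaller p-value of that caller. Its median was 61.4 (60.2 to 62.5) in the lone regions, against 78.7 (77.5 to 80.0) in the other 4946 P19 CTCFL peaks. Their scores ran from 50.02, at the floor of the list, to 274, whereas the other peaks reached 1059. With the list limited to scores of at least 100 the median of the lone regions was 126 by construction. A score of at least 100 was found in 102 lone regions, 11.1% (9.13 to 13.3), against 28.7% of the whole list. A score under 60 was found in 425, 46.2% (42.9 to 49.5), against 26.0% of the list. The other classes of P19 CTCFL peaks all had higher median scores. The median was 73.7 (71.8 to 75.9) in the 850 peaks with P19 CTCF and nothing in 3T3, 73.6 (71.6 to 75.5) in the 947 peaks with a 3T3 peak but no P19 CTCF, and 83.3 (81.5 to 85.5) in the 3149 peaks with both.

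The share of lone regions was lower at higher scores of the P19 CTCFL list. Of the 587 lowest scoring peaks, 180 stood alone, 30.7% (27.0 to 34.6). Those 180 are 19.6% (17.0 to 22.3) of the lone regions, against 10.0% of the list. In the fifth of 10 score groups the share was 14.0% (11.3 to 17.0), and among the 586 highest scoring peaks it was 2.39% (1.31 to 3.98), which is 14 regions. Those 14 are 1.52% (0.834 to 2.54) of the lone regions, against 9.99% of the list. This 1.52% became 0.956% when peaks up to 1000 bp apart were joined, 2.68% when a region was defined by centres no more than 200 bp apart, 2.67% with peaks resized to 200 bp and 4.83% with lists of equal length. Peaks with P19 CTCF but nothing in 3T3 made up 12.6% (10.0 to 15.6) of the lowest group and 11.9% (9.43 to 14.9) of the highest. Peaks with a 3T3 peak but no P19 CTCF made up 14.8% (12.0 to 18.0) of the lowest and 8.02% (5.95 to 10.5) of the highest.

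**Figure D1:**
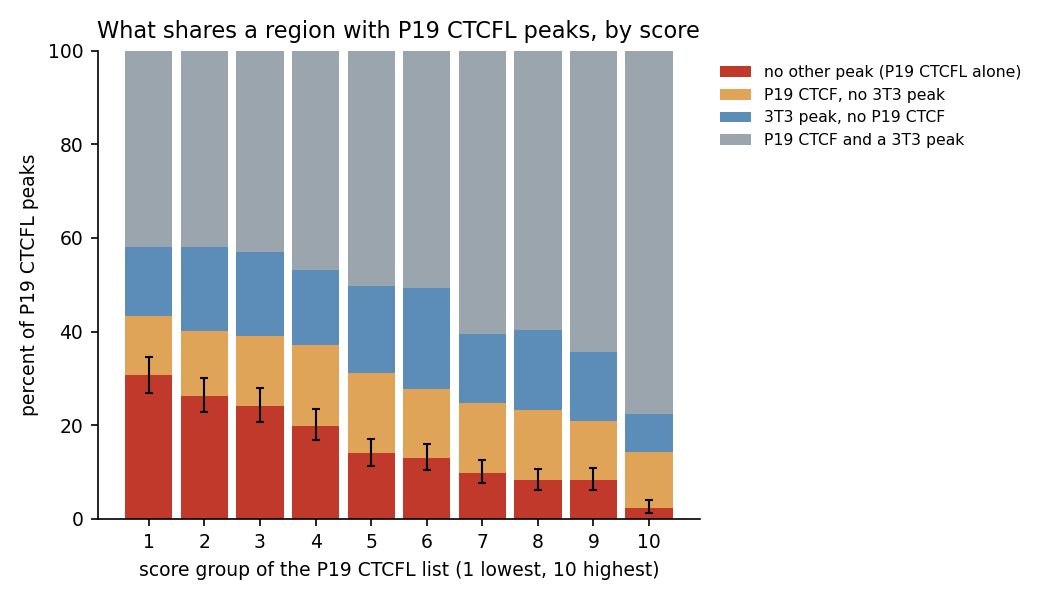
Percent of P19 CTCFL peaks in each of 10 score groups (about 587 peaks each) by what else lies in their region, with exact 95% intervals on the share that stands alone. That share is 30.7% in the lowest group and 2.39% in the highest, while peaks with P19 CTCF and a 3T3 peak make up 41.9% of the lowest and 77.6% of the highest group.

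The lone regions were also narrow. Their median width was 522.5 bp (515 to 530), against 596 bp (590 to 602) in the other P19 CTCFL peaks, and in 9 of 10 score groups their median was the lower one. The class closest in width was the peaks with P19 CTCF and nothing in 3T3, at 558 bp (543 to 575). The median was 593 bp (582 to 605) with a 3T3 peak but no P19 CTCF, and 610 bp (600 to 617) with both. Widths ran from 237 to 1238 bp, with an interquartile range of 459.8 to 619 bp. A wider peak touches another peak more readily, so width is not independent of the choice. The widest lone region, chr19:26681020-26682257 (1238 bp), scored 57.8. The next in width, chr11:97523108-97524194 (1087 bp) and chr4:138294878-138295923 (1046 bp), scored 111 and 89.9. Across the 920 regions score and width had a Spearman's rho of 0.199, and 0.331 across the other 4946 peaks, with all peaks from 1 library.

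**Figure D2:**
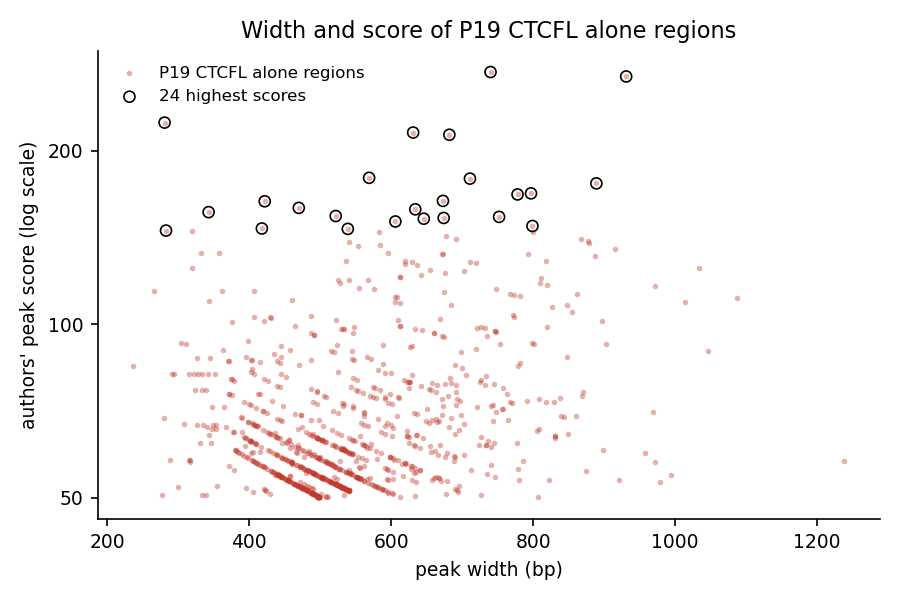
Width (bp) against the authors' peak score (log axis) for the 920 lone P19 CTCFL regions, with the 24 highest scores circled. All but 102 regions lie below 100, and low scores fall on narrow bands that decline with width.

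Many of the values in these bands were repeated. A peak of the P19 CTCFL list with exactly the same width and score, to the 2 decimals deposited, existed for 423 lone regions, 46.0% (42.7 to 49.3), against 26.2% of the list and 22.5% (21.3 to 23.7) of the other peaks. Among scores under 60 it existed for 298 of 425 lone regions, 70.1% (65.5 to 74.4), against 53.1% of the list and 46.6% (43.6 to 49.6) of the other peaks. The difference at these low scores was 23.5 points (18.0 to 28.8). At scores of at least 100 it was 2.29 points (−2.28 to 9.40), which includes no difference. The measure is made of score and width, both lower in the lone regions, so these differences describe the regions and are not independent of the choice. Within each score range, lone and other peaks were not matched further by score or width. The measure was chosen after the plot of width and score was seen, and the origin of the repeats was not tested.

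The 24 highest scoring lone regions had scores of 145 to 274. The strongest, chr2:73108450-73109189, scored 274, which was rank 124 in the P19 CTCFL list. It stood 350 bp from a 3T3 CTCFL peak (score 117), 422 bp from a 3T3 CTCF peak (score 62.9) and 2361 bp from a P19 CTCF peak (score 105). This region therefore touched no other peak but had peaks of all 3 other lists nearby, the 3T3 ones within 1 kb. The second, chr2:158436236-158437166 (score 269), had its nearest peaks at 1902 bp for P19 CTCF, 2346 bp for 3T3 CTCFL and 2176 bp for 3T3 CTCF. The third, chr5:108157801-108158081 (score 224), was only 281 bp wide, and its nearest P19 CTCF peak was 60565 bp away with a score of 50.3.

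A few of the leading regions lay beside CTCF peaks that they did not touch, some strong and some below the median of their list. At chr5:75545896-75546526 (score 215) a P19 CTCF peak of score 319 was 573 bp away, and a 3T3 CTCF peak of score 1897 was 688 bp away. At chr11:118948525-118949130 (score 151) peaks of P19 CTCF, 3T3 CTCFL and 3T3 CTCF lay at 118, 222 and 332 bp, with scores of 159, 255 and 1036. At both places CTCF peaks of both lines sat within 1 kb of the P19 CTCFL peak. At chr15:103170206-103170887 (score 213) the nearest P19 CTCF peak, 389 bp away, was close to the floor of its list at 50.3. At chr17:25569671-25570467 (score 169) P19 CTCF lay 268 bp away (score 85.2) and 3T3 CTCF 482 bp away (score 98.8). Another P19 CTCFL peak lay 67 bp from this region and 351 bp from the one on chromosome 11.

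Others had a 3T3 CTCF peak as their only neighbour within 1 kb. The peak of 3T3 CTCF was 363 bp from chr3:107400783-107401252 (score 159), 548 bp from chr15:103369191-103369968 (score 168) and 786 bp from chr7:30090345-30090913 (score 179). It was 696 bp from chrX:136813683-136814481 (score 148), the 1 region of the 24 on the X chromosome, and 33 bp from chr7:17061382-17061799 (score 147). In each of these cases P19 CTCF was at least 3682 bp away. In the 24 regions as a whole, 10 had a peak of another list within 1 kb and 19 within 10 kb. Of all 920 lone regions, 20.1% (17.6 to 22.8) had one within 1 kb and 63.3% (60.1 to 66.4) within 10 kb. The shares over the whole list were not computed.

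The remaining leading regions had more space around them. The closest peak of the other 3 lists was 35203 bp from chr1:183583274-183583556 (score 145), 26648 bp from chr14:49674610-49675283 (score 153) and 23855 bp from chr1:16710747-16711635 (score 175). It was a 3T3 CTCFL peak at 10819 bp from chr17:26917636-26918281 (score 152) and a 3T3 CTCF peak at 10335 bp from chr6:124730070-124730491 (score 163). These 5 are the regions of the 24 with nothing else within 10 kb. The other regions of the 24, with a nearest peak at 2755 to 8649 bp, were chr15:78632548-78633258, chr5:148385881-148386553, chr2:181397719-181398352, chr6:87687894-87688236, chr9:60129454-60129975, chr11:106890736-106891487 and chr10:80001372-80001910, with scores of 146 to 179.

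At the edge of the rule, 19 lone regions, 2.07% (1.25 to 3.21), lay within 50 bp of a peak of another list. Within 200 bp there were 55, 5.98% (4.54 to 7.71). The shares of the whole list at these distances were not computed. The closest was chr17:87730297-87730852 (score 56.3), 2 bp from a 3T3 CTCF peak. It was followed by chr15:75445776-75446553 at 6 bp, chr11:120558817-120559458 and chr6:124881864-124882635 at 9 bp each and chr7:48154350-48154787 at 11 bp, all beside 3T3 CTCF. Just outside the rule, chr4:144784031-144784484 (score 67.2) shared 2 bp with a peak of another list, chr1:173434079-173434750 (score 53.8) shared 3 bp and chr19:10955296-10956109 (score 54.2) shared 4 bp. Longer overlaps of 7 and 8 bp kept out chr16:91269513-91270181 (score 92.3) and chr8:113916557-113917230 (score 61.4).

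Most lone regions had a peak of another list within 10 kb. The nearest 3T3 CTCF peak lay at a median of 8016 bp (7016 to 9623), the nearest P19 CTCF peak at 12618 bp (10975 to 14853) and the nearest 3T3 CTCFL peak at 29546 bp (24017 to 34864). These medians follow the lengths of the lists and are not a ranking of the factors. Taking the 3 lists together, the nearest peak was at a median of 4938 bp (4272 to 5857), with 185 regions at 1000 bp or less, 20.1% (17.6 to 22.8), and 582 at 10 kb or less, 63.3% (60.1 to 66.4). These joint shares were not computed over the whole P19 CTCFL list. For each list alone, lone regions with a peak within 1 kb were compared with the whole list, leaving out touching peaks. The shares were 9.35% against 10.2% for P19 CTCF, 6.63% against 11.6% for 3T3 CTCFL and 14.8% against 19.8% for 3T3 CTCF. The neighbours within 1 kb included strong peaks of their lists. The median score of the 86 P19 CTCF neighbours was 138 (109 to 173), an interval that includes the list median of 117. Of the 136 3T3 CTCF neighbours, 80 were at or above their list median of 104, 58.8% (50.1 to 67.2).

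**Figure D3:**
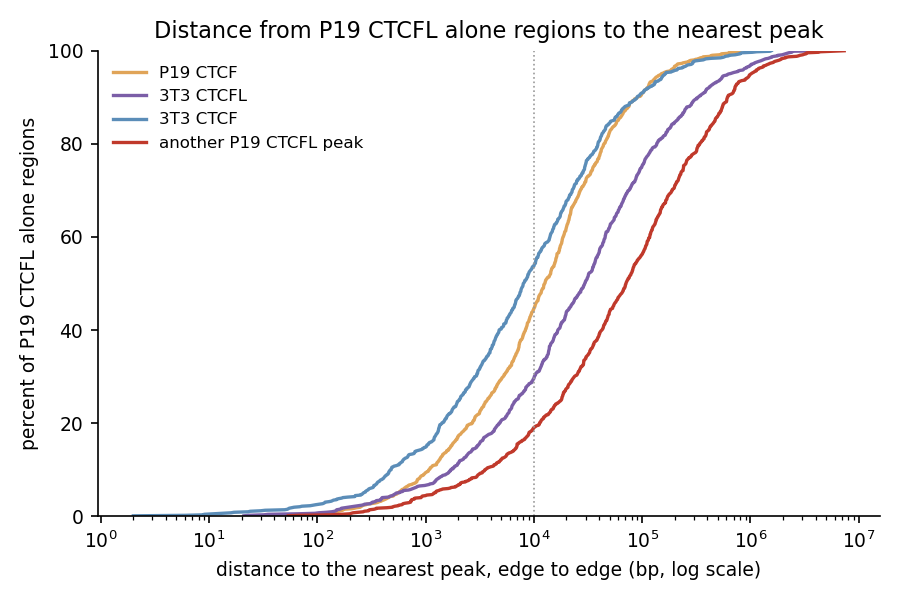
Cumulative percent of the 920 lone regions by distance (bp, log axis) to the nearest P19 CTCF, 3T3 CTCFL and 3T3 CTCF peak and to another P19 CTCFL peak; the dotted line marks 10 kb. At 10 kb the curves stand at 44.6%, 29.6%, 53.7% and 19%.

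A P19 CTCF peak lay within 10 kb of 410 lone regions, 44.6% (41.3 to 47.8). Counting only CTCF peaks that do not touch the CTCFL peak, 51.0% of the whole list and 52.2% (50.8 to 53.6) of the other P19 CTCFL peaks had one, a difference of −7.64 points (−11.2 to −4.07). Set against the 947 peaks that also lacked P19 CTCF but had a 3T3 peak (45.5%), the difference was −0.947 points (−5.53 to 3.64), so the interval includes no difference. For 3T3 CTCF within 10 kb the lone regions had 53.7% (50.4 to 57.0), against 63.3% of the list, 61.4% of those 947 peaks and 58.7% (55.3 to 62.0) of the 850 peaks with P19 CTCF and nothing in 3T3. The difference from the 850 peaks was −5.01 points (−9.69 to −0.304), and −4.23 (−9.36 to 1.00) when averaged over score groups, which includes no difference. For 3T3 CTCFL within 10 kb they had 29.6% (26.6 to 32.6), against 37.6% of the list and 31.3% of the 850 peaks with P19 CTCF and nothing in 3T3. Peaks that touch these lists are removed by the rule, so none of these comparisons is independent of it. With all lists cut to 5866 peaks, P19 CTCF among them, 2879 P19 CTCFL peaks stood alone. Of these, 15.0% had P19 CTCF within 10 kb, which is not a share of the same regions as the 44.6%. The share of the other peaks under that cut was not computed.

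Beyond the first kb, CTCF peaks were denser close to the lone regions than farther away. Within 1 kb, where the rule removes touching peaks, P19 CTCF centres stood at 14.7 per Mb (9.67 to 21.3). Per Mb, 39.3 P19 CTCF peak centres (34.9 to 44.1) lay 1 to 5 kb from the centre of a lone region, 26.5 (25.4 to 27.7) at 10 to 50 kb and 22.9 (22.6 to 23.3) at 100 to 500 kb. The density at 1 to 5 kb was 1.71 times that at 100 to 500 kb. In the 850 peaks with P19 CTCF but nothing in 3T3 the same ratio was 1.76, in the 3149 peaks with P19 CTCF and a 3T3 peak it was 1.74, and in the 947 peaks with a 3T3 peak but no P19 CTCF it was 1.405. For 3T3 CTCF the lone regions had 61.4 peaks per Mb (55.9 to 67.3) at 1 to 5 kb and 36.3 (35.8 to 36.7) at 100 to 500 kb. The ratio was 1.69, against 1.75, 1.69 and 1.86 around the peaks with P19 CTCF only, with a 3T3 peak only and with both. At 100 to 500 kb, a distance at which the rule removes nothing directly, P19 CTCF density was 22.9 per Mb around the lone regions, against 23.9 (23.6 to 24.3), 25.5 (25.1 to 25.8) and 27.3 (27.1 to 27.5) around the peaks with P19 CTCF only, with a 3T3 peak only and with both. The lone regions had the lowest of these 4 densities, and its counting interval did not overlap the others. Neighbouring peaks share surroundings and 1 CTCF peak can be counted from several of them, so these intervals are too narrow.

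**Figure D4:**
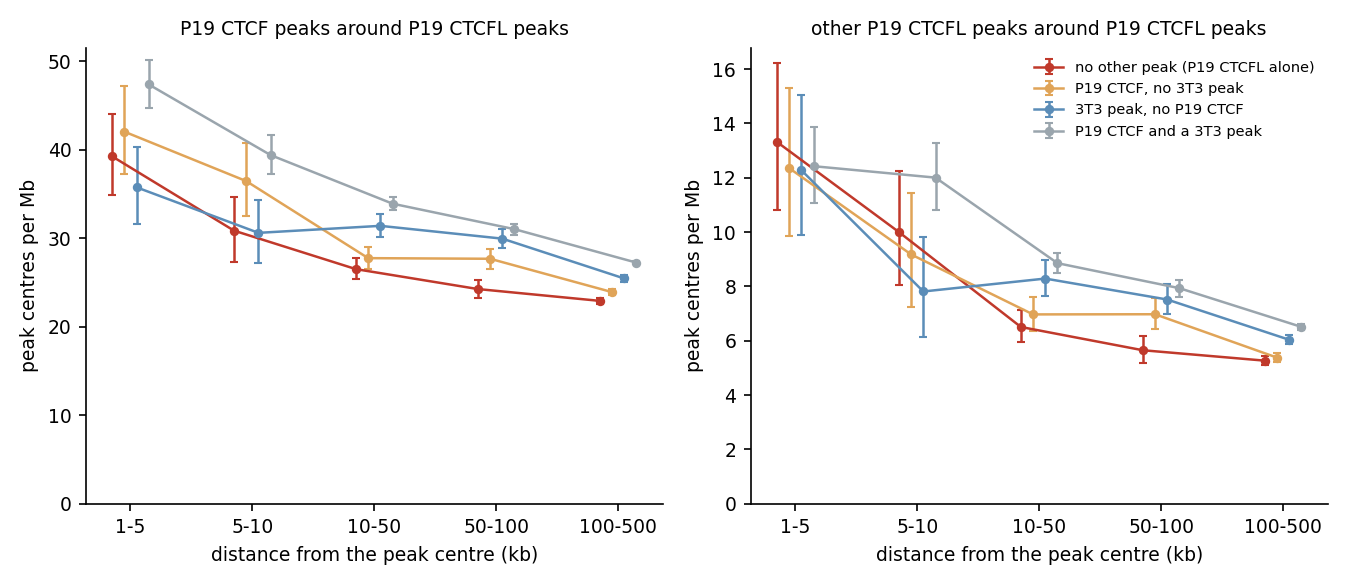
Density (peak centres per Mb) of P19 CTCF peaks (left) and of other P19 CTCFL peaks (right) by distance (kb) from P19 CTCFL peaks, for the lone regions and the other 3 classes, with exact 95% Poisson intervals. Around the lone regions P19 CTCF stands at 39.3 per Mb at 1 to 5 kb and 22.9 at 100 to 500 kb, and P19 CTCFL at 13.3 and 5.27.

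The regions next to lone CTCFL peaks mostly held CTCF peaks without CTCFL peaks, as did the regions of the series at large. The nearest region held 3T3 CTCF only in 260 cases, 28.3% (25.4 to 31.3), against 29.9% of all 64780 other regions. It held P19 CTCF only in 201, 21.8% (19.2 to 24.7), against 19.9%, and CTCF of both lines without CTCFL in 190, 20.7% (18.1 to 23.4), against 21.6%. A region with a P19 CTCFL peak was the nearest in 94 cases, 10.2% (8.34 to 12.4), against 7.56%.

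The spacing of lone regions from other P19 CTCFL peaks was not itself part of the rule. The 5866 P19 CTCFL peaks lay in 5816 regions, and every lone region was a single peak. P19 CTCFL peaks that share a region therefore all count among the other peaks. The rule also removes peaks that touch the other lists, so the comparisons of spacing are not independent of it. Another P19 CTCFL peak lay within 10 kb of 175 lone regions, 19% (16.5 to 21.7), against 20.2% of the whole list and 20.4% (19.3 to 21.5) of the other peaks. The difference from the other peaks was −1.36 points (−4.10 to 1.55), which includes no difference. With the list limited to scores of at least 100 the share of lone regions was 11.8%. That limit also removes the neighbours that are counted, and the share of the other peaks under it was not computed. Over longer distances fewer of the lone regions had a neighbour. Within 100 kb 517 had another P19 CTCFL peak, 56.2% (52.9 to 59.4), against 65.0% of the list and 66.7% (65.3 to 68.0) of the other peaks. The difference was −10.5 points (−14.0 to −6.96), and −9.20 (−12.9 to −5.57) when averaged over score groups. Without averaging it was −6.16 (−10.8 to −1.50) from the peaks with P19 CTCF only. From those with a 3T3 peak only it was −8.01 (−12.5 to −3.49). Per Mb, 13.3 P19 CTCFL centres (10.8 to 16.2) lay at 1 to 5 kb from a lone region and 5.27 (5.10 to 5.44) at 100 to 500 kb. Around the peaks with P19 CTCF only, with a 3T3 peak only and with both, the density at 1 to 5 kb was 12.4, 12.3 and 12.4. Their intervals overlapped that of the lone regions. At 100 to 500 kb the densities of these 3 classes were 5.38 (5.21 to 5.56), 6.04 (5.87 to 6.22) and 6.51 (6.41 to 6.61). There the interval of the peaks with P19 CTCF only overlapped that of the lone regions.

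Another lone region lay within 10 kb of 40 lone regions, 4.35% (3.12 to 5.87), which form 20 pairs. A lone region lay within 10 kb of 3.55% of the whole list and of 3.40% (2.91 to 3.94) of the other P19 CTCFL peaks, so the intervals overlap. The pair with the highest summed score was chr2:73102046-73102912 (score 141) and chr2:73108450-73109189 (score 274), the strongest lone region, with 5537 bp between them. A 3T3 CTCFL and a 3T3 CTCF peak lay in that gap, and no P19 CTCF peak. The next pairs were chr5:108153021-108153511 with chr5:108157801-108158081 (4289 bp apart, scores 55.1 and 224) and chr6:87680548-87681029 with chr6:87687894-87688236 (6864 bp apart, scores 59.8 and 156). The gap on chromosome 5 held no peak of the other lists, and that on chromosome 6 held 1 3T3 CTCFL and 1 3T3 CTCF peak. The last of the 5 named pairs were chr17:47624078-47624896 with chr17:47629652-47630221 (4755 bp apart) and chr12:118391172-118391482 with chr12:118392271-118392900 (788 bp apart). The gap on chromosome 17 held 2 3T3 CTCF peaks and that on chromosome 12 no peak of the other lists. None of the 5 pairs had a P19 CTCF peak between its regions. How often gaps this short hold one was not tested.

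No chromosome stood apart from the list in its share of lone regions. Chromosome 11 held 115 of them, 12.5% (10.4 to 14.8), against 12.0% of the list, and they were densest there at 0.969 per Mb of the stretch covered by peaks. The X chromosome was the sparsest, with 12 regions and 0.0745 per Mb. The whole list was likewise densest on chromosome 11, at 5.94 peaks per Mb, and sparsest on X, at 0.404. Lone regions were 18.5% of the P19 CTCFL peaks of X. As a share of the P19 CTCFL peaks of a chromosome, lone regions ran from 12.3% on chromosome 7 (9.06 to 16.2) to 19.2% on chromosome 10 (14.5 to 24.6). The interval of every one of the 20 chromosomes included the 15.7% of the whole list. With few peaks per chromosome these intervals are wide, at 9.92 to 30.0% on X.

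**Figure D5:**
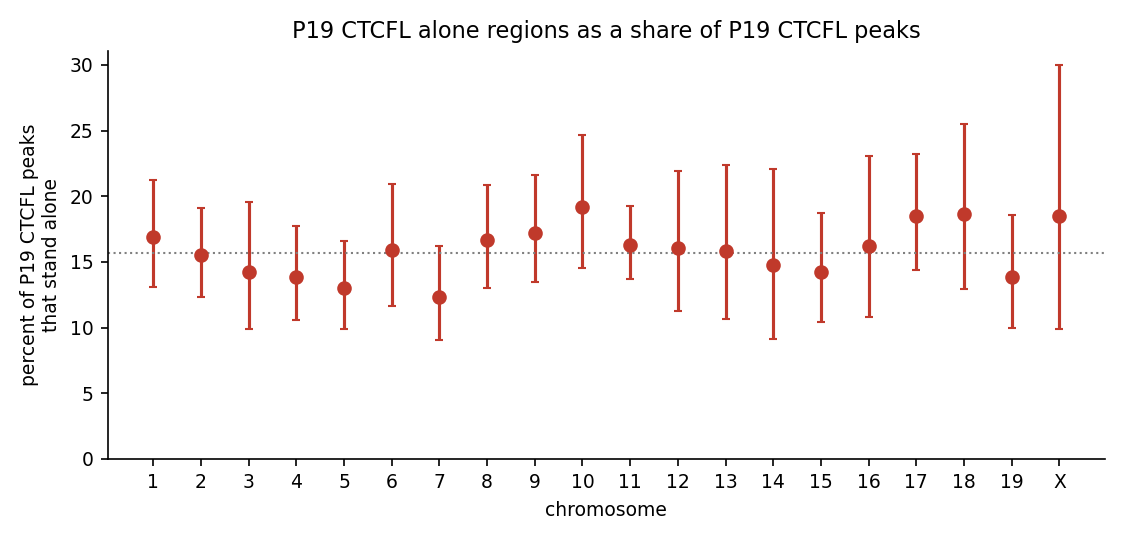
Percent of the P19 CTCFL peaks of each chromosome that stand alone, with exact 95% intervals; the dotted line is the 15.7% of the whole list. The values lie between 12.3% and 19.2%, and each interval crosses the line.

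Lone regions were scattered over 662 windows of 1 Mb, of which 470 held a single one. The highest number in a window was 5, reached 3 times. On chr8:108000001-109000000 the 5 lone regions were among 21 P19 CTCFL peaks, in a window with 43 P19 CTCF and 65 3T3 CTCF peaks. The other 2 such windows had few CTCFL peaks with a partner. On chr11:33000001-34000000, 5 of 6 P19 CTCFL peaks stood alone, next to 17 P19 CTCF peaks, 18 of 3T3 CTCF and 1 of 3T3 CTCFL. Their scores were 54.7, 58.9, 55.2, 57.7 and 82.6, in the order chr11:33048174-33049167, chr11:33067313-33068002, chr11:33086327-33086816, chr11:33262067-33262574 and chr11:33409276-33409800. On chr9:48000001-49000000, 5 of 9 P19 CTCFL peaks stood alone, with scores of 53.5 to 82.0.

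A small group of lone regions was far from the peaks of the other lists. No peak of the other 3 lists lay within 100 kb of 51 regions, 5.54% (4.15 to 7.22). Leaving touching peaks out of account, the same held for 1.53% of the whole P19 CTCFL list and 0.789% (0.561 to 1.08) of the other P19 CTCFL peaks, a measure that shares its lists with the rule. Their median score was 56.1 (53.9 to 59.6), against 64.1 (61.7 to 68.2) for the 185 regions with such a peak within 1 kb, and 4 of the 51 scored at least 100. The most distant was chr14:92359844-92360170 (score 66.8), 803209 bp from the nearest peak of another list and 7338022 bp from the next P19 CTCFL peak. It was followed by chr6:110240242-110240713 (766907 bp, score 52.2), chr1:48546071-48546673 (679141 bp, score 58.5), chr10:35420230-35420786 (632969 bp, score 53.9) and chr6:110467883-110468431 (539189 bp, score 62.7). Among the lone regions, more of the stronger ones had a peak of another list nearby. Such a peak lay within 1 kb of 32 of the 102 regions scoring at least 100, 31.4% (22.5 to 41.3). For the 425 scoring under 60 it was 72, 16.9% (13.5 to 20.9). These shares were not computed over the whole list. Score and distance to the nearest non-touching P19 CTCF, 3T3 CTCFL and 3T3 CTCF peak were weakly correlated. Spearman's rho was −0.133, −0.120 and −0.173 in the lone regions. In the other P19 CTCFL peaks it was −0.0269, −0.0622 and −0.0527.

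CTCFL alone had a counterpart in fibroblasts, where 6278 of 16764 CTCFL peaks were free of the other 3 lists. That is 15.7% in P19 (14.8 to 16.6) and 37.4% in 3T3 (36.7 to 38.2), from lists of unequal length. In both lines the lone peaks had lower median scores and widths than the other CTCFL peaks of the line, and smaller shares with neighbours within 10 kb, of which the P19 difference in CTCFL spacing includes 0. Scores differed in the median by −17.4 in P19 and −32.3 in 3T3, and widths by −73.5 bp in P19 and −84.0 bp in 3T3. A CTCF peak of the same line that did not touch the CTCFL peak lay within 10 kb of 44.6% of lone and 52.2% of other peaks in P19, and of 63.2% of lone and 65.5% of other peaks in 3T3. Another CTCFL peak of the line was within 10 kb of 19% of lone and 20.4% of other peaks in P19, and of 40.0% of lone and 51.5% of other peaks in 3T3. Whether these contrasts differ between the lines was not tested.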

How the data were processed

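Per the labels, libraries were made from 10 ng of immunoprecipitated DNA. Per the submitters' processing notes, FastQC, Bowtie, SAMtools and MACS 1.4 and the builds hg19 and mm9 were named, with no roles. The sources used here do not give control libraries, filters or pooling. The authors' deposited peak score is the caller's value per peak and was used only within a list. Starts and ends were deposited counted from 0 and are given from 1.

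The build was taken as mm9. On 10 of 20 chromosomes a peak lay beyond the last gene of the only gene table used here (GRCm38.p6), so no gene, promoter, motif or sequence was assigned and the sequence comparison that had been planned was not run. Peaks were merged at 1 bp of overlap. Distances run edge to edge, densities use peak centres, and medians carry exact order-statistic intervals. Intervals of differences combine the exact ones. Score groups are 10 groups of equal size.

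The named regions are the 24 highest scores, 3 widest, 5 nearest to and 5 just past the overlap limit, 5 farthest, 5 pairs and the fullest 1 Mb windows. The regions and this rule were chosen with earlier results of these data known. The merging was tested on simulated data in 3 runs, which recovered every planted lone peak, and bedtools 2.31.1 also gave 920. Values were computed with SciPy 1.17.1, pandas 2.3.3 and numpy 2.4.6 in Python 3.11.15 and drawn with matplotlib 3.10.9.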

Additional observations from a re-analysis of the deposited data

How the results depend on the processing

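No paired analysis was possible because all groups are single libraries, which also means that no replicate could be left out. The values below are, in this order, the share of the P19 CTCFL list that stood alone (15.7%), the median score (61.4), the share of lone regions in the highest score group (1.52%) and the shares with P19 CTCF (44.6%) and with another P19 CTCFL peak (19%) within 10 kb, and under the settings for which all of these were computed, those not given stayed within their interval. Joining peaks up to 200 bp apart gave 14.7% of the list. Joining them up to 1000 bp apart gave 12.5% of the list, 37.3% with P19 CTCF and 14.5% with CTCFL. Centres within 200 bp gave 21.0%, a score of 62.9, 2.68% and 51.8% with P19 CTCF. Peaks resized to 200 bp gave 21.1%, 62.9, 2.67% and 51.3%. P19 CTCFL peaks scoring at least 100 gave 6.05%, 126, 52.0% with P19 CTCF and 11.8% with CTCFL. Lists cut to equal length gave 49.1%, 68.1, 4.83% and 15.0% with P19 CTCF. Leaving out a list gave 30.6% (P19 CTCF), 19.8% (3T3 CTCF) and 17.0% (3T3 CTCFL) of the list, the one value computed there. Score limits, equal lengths and dropped lists remove peaks by construction, and for the other shifts the cause was not tested. In all, 28 values under these settings moved beyond their interval, 5 of them the share on chromosome 11, and 17 did not, and those for autosomes alone were among the 17. Averaging over score groups, chosen after seeing the data, kept within their intervals the differences in share with P19 CTCF or another P19 CTCFL peak within 10 kb, 6 in number. The averaging shrank the difference in the share of peaks at least as wide as the list median to −11.4 points (−14.7 to −7.98), against −21.3 (−24.6 to −17.9) without it, between lone regions and the other P19 CTCFL peaks. The averaged difference was smaller, −5.06 points (−9.89 to −0.473), from the peaks with P19 CTCF and nothing in 3T3. From the peaks with a 3T3 peak but no P19 CTCF it was −14.1 (−18.8 to −9.51). Peaks below the lists' floor score of 50 are not seen, so a lone region can have weaker binding of a partner than the lists record.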

Other observations

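A few places held more lone than accompanied P19 CTCFL peaks. Of the 419 windows of 1 Mb with at least 5 P19 CTCFL peaks, lone regions were the majority in 8. Adjacent windows on chromosome 9 were among them, and over chr9:47000001-49000000 lone regions made up 9 of 15 P19 CTCFL peaks, beside 37 P19 CTCF, 10 3T3 CTCFL and 27 3T3 CTCF peaks. Counts this small are given as values only.

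Among the 24 highest scoring lone regions, 3 were narrower than 407.5 bp, the tenth percentile of the list (10.0% of its peaks), 12.5% (2.66 to 32.4). Of all 920 lone regions 110 were that narrow, 12.0% (9.93 to 14.2), a share near that of the 24. Of the 683 other P19 CTCFL peaks scoring at least as high as the lowest of these 24, 29 were that narrow, 4.25% (2.86 to 6.04). The 3 regions were chr5:108157801-108158081, chr6:87687894-87688236 and chr1:183583274-183583556, chosen after their values were seen.

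Of P19 CTCFL peaks exactly 500 bp wide, 3 shared the score 50.04, 3 shared 54.39 and 2 shared 56.35, an example of the repeated values that lie on the bands in the plot of width and score. It was chosen after the values were seen.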
